A study of Mus musculus with 3 samples.

Results

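Aminoacyl-tRNA synthetases are the enzymes that load each transfer RNA with its amino acid, and 36 of their genes were followed in neurons deprived of oxygen. The genes were taken by symbol from a table of 24054 genes in which all 36 were present. The 20 whose symbols do not end in 2 encode enzymes of the cytosol, and the 16 whose symbols end in 2 encode enzymes of the mitochondrion. The rule names genes by symbol and not by value, but the members were chosen with earlier results of these data known. Each of the 36 passed the filter of a mean of at least 1 CPM (the normalised read count, scaled to an effective library size) that left 12692 genes to compare.

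The cells were primary cortical neurons, taken from the cortex of C57BL/6 mice at embryonic day 17 and grown for 7 days. In the group called hypoxia with T3 oxygen was 0.2% over 7 hours and the medium held 5 nM of T3 (triiodothyronine, the active thyroid hormone). The group called hypoxia had the same oxygen and hours but no added T3, and control stayed at 21% oxygen. Each group was 1 library, and the labels do not say how many animals or cultures it came from or what hormone the control medium held.

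The deposited values correspond to 22533574 reads for hypoxia with T3, 17118865 for hypoxia and 18081904 for control. A count of 0 allows up to 3 reads, which is 0.128, 0.166 and 0.139 CPM in the same order of libraries. Neuronal markers were present, with all 7 at 1 CPM or more and sums of 5344, 5426 and 5530 CPM in hypoxia with T3, hypoxia and control. Single markers differed in direction in that sum, with 739, 873 and 1771 CPM for Tubb3 (2.03 times lower in hypoxia than in control) and 185, 171 and 75.4 CPM for Nefl (2.27-fold higher), and their part in the results was not tested. Astrocyte markers summed to 358, 372 and 313 CPM with 5 of 6 at 1 CPM or more, and those of dividing progenitors to 204, 182 and 218 CPM with 6 of 6. Markers of the oligodendrocyte lineage, 7 of 7 at 1 CPM or more, summed to 193 and 191 CPM in the hypoxic libraries and 329 CPM in control, and their part in the results was not tested. Of 6 microglial markers 0 reached 1 CPM, and of 5 endothelial markers 1 did. In RNA from a whole culture, fewer cells of a type and less RNA per cell cannot be told apart. With 1 library per group no difference was tested against the spread between cultures, and the exact 95% intervals given with the folds cover counting error only.

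Synthetases fall into 2 structural classes with unrelated catalytic domains, and in mammals a set of them is held with scaffold proteins in a multisynthetase complex. Separate nuclear genes make the mitochondrial enzymes, which serve the translation of the few proteins encoded by mitochondrial DNA, whereas Gars and Kars each supply an enzyme to both compartments. The transcription factor ATF4, whose translation goes up when eIF2 alpha is phosphorylated under amino acid shortage, endoplasmic reticulum stress or oxygen lack, is known in mammalian cells to bind many genes of cytosolic synthetases together with genes of amino acid synthesis and uptake. It binds the C/EBP-ATF response element (CARE), often together with a C/EBP protein. The question put to these data was how the synthetase genes stood in hypoxia, and whether they differed when T3 was present.

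For each gene with a CARE match in its promoter, the short sequence around the match nearest the start is shown, because these mark which members carry the letters that ATF4 is known to read. The windows run from 250 bases before to 50 bases after the transcript start in RefSeq (build GRCm38.p6), and 27 of the 36 genes were matched by symbol. The promoters of Cars, Hars, Lars, Nars, Rars, Vars, Wars, Hars2 and Pars2 were not analysed here. The letters searched were TGATGNAA on either strand, and 5 of the 27 genes with a window (18.5%) had at least 1 match, against 1219 of 27025 mouse genes (4.51%). The members with a match were Aars, Gars, Iars, Tars and Yars, all cytosolic and all on a list of 12 synthetases known as ATF4-induced in mammalian cells, of which 8 had a window. Of the 5 other cytosolic genes with a window 0 had a match, and of the 14 mitochondrial ones 0 had. The sequences are written 5′ to 3′ on the strand of the gene, with the match in capitals. In Aars, Gars, Iars and Tars the letters lie in the reverse orientation, and in Yars in the forward one.
Aars, first matched base at position 10 after the start, chr8:111033841-111033868, plus strand: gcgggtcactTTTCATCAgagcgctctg
Gars, first matched base 30 bases before the start, chr6:55037961-55037988, plus strand: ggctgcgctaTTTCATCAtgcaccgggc
Iars, first matched base at position 8 after the start, chr13:49682127-49682154, plus strand: actgtcagtaTTGCATCAcctccagacg
Tars, first matched base 15 bases before the start, chr15:11399656-11399683, minus strand: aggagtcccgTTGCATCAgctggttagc
Yars, first matched base at position 4 after the start, chr4:129189896-129189923, plus strand: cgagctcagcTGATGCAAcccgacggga

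Gars is shown over the whole 250 bases before its start, with the match again in capitals, because the match lies before the transcript and GENCODE M21 annotates 0 exons in this stretch. The stretch holds 0 matches to the core letters ACGTG or GCGTG (either strand), which HIF, the oxygen-regulated transcription factor, is known to read. In the full windows those core letters are common, being found in 46.7% of genes. They occur in 13 of the 13 cytosolic synthetases with a window, Gars among them, and in 11 of the 14 mitochondrial ones. A match describes the letters and is not a measured binding site.
Gars, chr6:55037751-55038000, plus strand: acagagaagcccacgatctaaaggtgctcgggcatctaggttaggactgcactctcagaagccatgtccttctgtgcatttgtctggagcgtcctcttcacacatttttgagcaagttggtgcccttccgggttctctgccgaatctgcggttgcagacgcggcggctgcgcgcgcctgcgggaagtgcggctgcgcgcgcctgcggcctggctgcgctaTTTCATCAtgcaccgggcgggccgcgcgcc

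**Figure D1:**
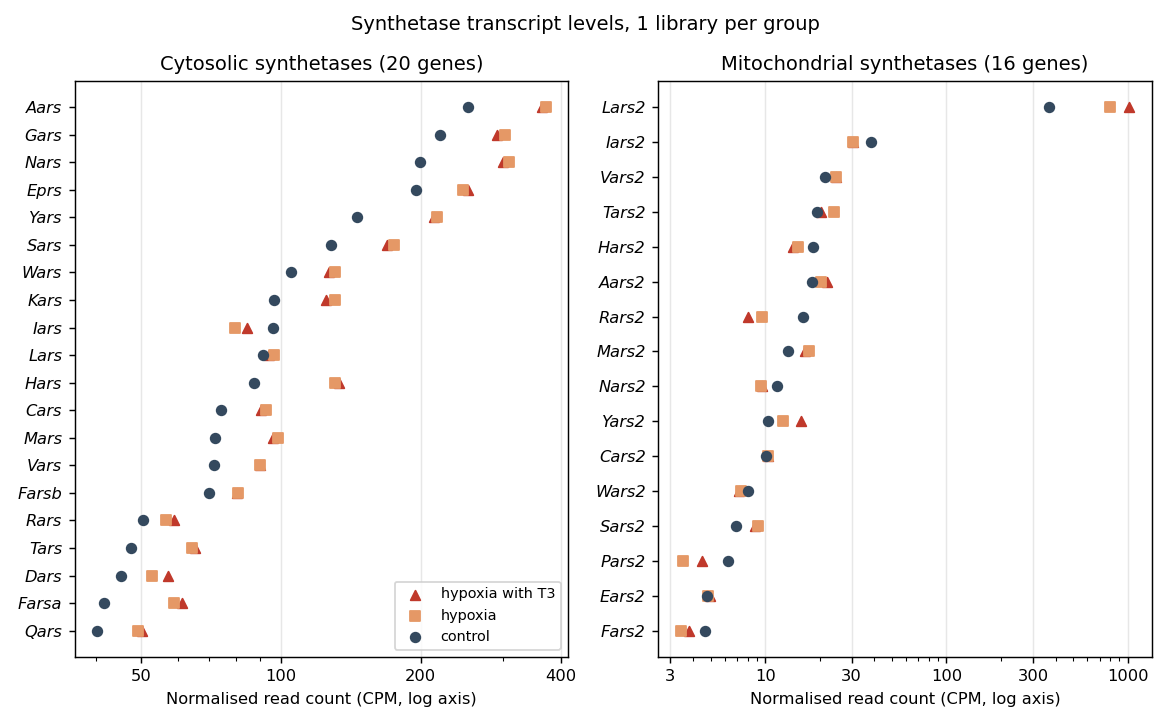
Normalised read counts (CPM, log axis) of the 20 cytosolic synthetases on the left and the 16 mitochondrial synthetases on the right, ordered by their level in control. Each point is 1 library. Among cytosolic genes the triangles (hypoxia with T3) and squares (hypoxia) lie to the right of the circles (control) except for Iars, and Lars2 stands far to the right of the other mitochondrial genes.

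Transcripts of the cytosolic synthetases were more abundant in hypoxia than in control as a group, by modest folds. Their summed level was 2836 CPM in hypoxia and 2130 CPM in control, a ratio of 1.33 (1.31 to 1.35), and 19 of the 20 had a log2 ratio above 0 (CPM with 1 CPM added), against 54.5% of all genes compared, though Lars and Rars lay below 0 when libraries were scaled to equal CPM sums. The median log2 ratio of the 20 was 0.38, which is 0.33 above the all-gene median of 0.05, and it ran between -0.27 in Iars and 0.63 in Nars. Relative to the all-gene median, 19 of 20 lay above it, against 50.0% of genes by construction. Another scaling can hardly change this count, because it moves all log2 ratios by nearly the same amount. At the fold of 1.5, 1 of 20, Nars, was called higher (8.46% of all genes) and 0 lower (13.8%). Under scaling to equal sums 0 were called higher (4.20% of all genes), and by median of ratios 0 (6.49%). At 2-fold 0 were called in either direction (1.99% higher and 4.92% lower among all genes). A fold of 1.25, chosen after the values were seen, called 12 of the 20 higher (26.6% of all genes) and 0 lower (24.4%). Counting intervals were wholly above 1 in 18 of the 20, against 4795 of the 12692 genes compared. An interval wholly below 1 was found for 1, Iars, against 3813 of the genes compared, and that of Lars included 1.

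The highest ratios belonged to enzymes for asparagine, histidine, tyrosine and alanine. Nars, the asparagine enzyme, had 301 CPM in hypoxia with T3, 310 CPM in hypoxia and 199 CPM in control, and hypoxia over control was 1.56-fold (1.49 to 1.62). Hars, the histidine enzyme, had 133, 131 and 87.5 CPM in the same libraries, 1.5-fold higher in hypoxia (1.41 to 1.59) but with a log2 ratio of 0.58 after 1 CPM was added, just under the rule. In both genes the hypoxic libraries lay close together and above control. Yars, the tyrosine enzyme, had 214 CPM in hypoxia with T3, 217 CPM in hypoxia and 146 CPM in control, or 1.49-fold in hypoxia over control (1.42 to 1.56). Aars, the alanine enzyme, had 364, 372 and 253 CPM and a ratio of 1.47 (1.42 to 1.52). Of the 31-base words of Aars transcripts 13.8% also occur, on the same strand, in those of its neighbour Exosc6, an exosome subunit, which had 12, 12 and 7.04 CPM in the same libraries. Dominant variants of the human genes for the alanine, glycine, histidine and tyrosine enzymes are known causes of Charcot-Marie-Tooth neuropathy.

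Phenylalanine is loaded by an enzyme of 2 kinds of subunit, and their transcripts differed in ratio. Farsa, the alpha subunit, had 61.1 CPM in hypoxia with T3, 58.9 CPM in hypoxia and 41.6 CPM in control, a hypoxia over control ratio of 1.42 (1.29 to 1.55). Farsb, the beta subunit, had 80.2, 80.9 and 70.0 CPM and a ratio of 1.16 (1.08 to 1.24). Both were higher in hypoxia, and their intervals did not overlap.

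The enzymes that serve both compartments, Gars for glycine and Kars for lysine, stood with the other cytosolic ones. Gars had 292 CPM in hypoxia with T3, 303 CPM in hypoxia and 220 CPM in control, 1.38-fold higher in hypoxia (1.32 to 1.43). Kars had 125, 131 and 96.4 CPM, 1.36-fold higher in hypoxia (1.28 to 1.44). Per kilobase of principal transcript Gars had the highest level of the 20, at 123, 127 and 92.6 CPM per kb, and Tars the lowest in control, at 16.3, 16.0 and 11.8 CPM per kb.

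Serine, threonine, tryptophan, cysteine and valine enzymes showed ratios between 1.25 and 1.36. Sars had 169 CPM in hypoxia with T3, 175 CPM in hypoxia and 128 CPM in control, a hypoxia over control ratio of 1.36 (1.30 to 1.44). Tars had 65.3, 64.2 and 47.4 CPM and a ratio of 1.36 (1.24 to 1.48). For each of these genes the hypoxic libraries both lay above control. Wars, the tryptophan enzyme known also as an interferon-induced gene, had 127 CPM in hypoxia with T3, 131 CPM in hypoxia and 105 CPM in control, a ratio of 1.25 (1.18 to 1.33). Cars had 90.4, 92.9 and 74.2 CPM and a ratio of 1.25 (1.17 to 1.34). Vars had 90.1, 90.1 and 71.7 CPM and a ratio of 1.26 (1.17 to 1.35).

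Enzymes held in the multisynthetase complex had lower ratios as a group than those outside it. The median log2 ratio of hypoxia over control was 0.25 for the 8 complex enzymes, of which 3 were at least 1.25-fold higher, and 0.45 for the 12 others, of which 9 were, against 26.6% of all genes. Their summed levels were 810 CPM in hypoxia and 687 CPM in control inside the complex (1.18-fold, 1.15 to 1.21), and 2025 CPM in hypoxia and 1443 CPM in control outside it (1.40-fold, 1.38 to 1.42). As shares of reads the gaps were narrower, at 0.0857% in hypoxia and 0.0820% in control inside the complex. Outside it the shares were 0.214% in hypoxia and 0.172% in control. These medians and sums are descriptions of the libraries, and the difference between the sets was not tested. Over the 20 cytosolic genes the ratio also varied with gene length (Spearman's rho -0.50) and mean level (0.56). The sets were not matched for either.

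Mars, which loads methionine, had 96.1 CPM in hypoxia with T3, 98.4 CPM in hypoxia and 71.9 CPM in control, the highest ratio of the complex enzymes at 1.37 (1.28 to 1.47). Of its 31-base words 1.10% occur on the opposite strand of Ddit3, the stress transcription factor gene at its 3′ end. Eprs, a single chain that loads both glutamate and proline, had 253, 246 and 195 CPM and a ratio of 1.26 (1.21 to 1.32). Qars, for glutamine, had 50.3, 49.3 and 40.2 CPM and a ratio of 1.23 (1.12 to 1.35). These 3 genes were higher in both hypoxic libraries than in control. Dars, for aspartate, had 57.2 CPM in hypoxia with T3, 52.6 CPM in hypoxia and 45.2 CPM in control, a ratio of 1.16 (1.06 to 1.27). Rars, for arginine, had 58.9, 56.6 and 50.5 CPM and a ratio of 1.12 (1.03 to 1.22). Lars, the leucine enzyme that is also known as a leucine sensor of the mTORC1 pathway, had 94.2, 96.6 and 91.4 CPM and a ratio of 1.06 whose interval includes 1 (0.991 to 1.13).

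Iars, the isoleucine enzyme, was the cytosolic member with a lower CPM in hypoxia than in control. It had 84.6 CPM in hypoxia with T3, 79.5 CPM in hypoxia and 96.2 CPM in control, 1.21 times lower in hypoxia (1.13 to 1.29). Its promoter window holds a CARE match with its first base at position 8 after the start, and the part of this match in the ratio was not tested. Of its transcript words 14.5% are shared on the same strand with the pseudogene Gm4849.

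The non-enzymatic scaffold proteins of the complex were higher in hypoxia by unequal amounts. Aimp2 had 34.2 CPM in hypoxia with T3, 37.4 CPM in hypoxia and 21.2 CPM in control, 1.77-fold (1.57 to 1.99). Aimp1, from which the secreted cytokine EMAPII is cut, had 35.8, 32.7 and 24.5 CPM, 1.33-fold (1.18 to 1.5). Eef1e1 had 45.9, 40.5 and 37.4 CPM, and its 1.09-fold ratio has an interval that includes 1 (0.981 to 1.2).

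Membership of the ATF4 list and of a structural class sorted the cytosolic enzymes only loosely. The 12 genes on the ATF4 list had a median log2 ratio of 0.44, with 8 at least 1.25-fold higher (26.6% of all genes) and 11 above 0 (54.5%). The 8 cytosolic genes not on it had 0.31, with 4 at least 1.25-fold higher and 8 above 0, to be read against the same shares. In sums the first set was 2185 CPM in hypoxia and 1627 CPM in control (1.34-fold, 1.32 to 1.36), and the second 650 CPM in hypoxia and 503 CPM in control (1.29-fold, 1.26 to 1.33). As shares of reads the first was 0.231% in hypoxia and 0.194% in control, and the second 0.0688% and 0.0600%. The 10 class I enzymes had a median of 0.32 with 4 at least 1.25-fold higher, and the 10 class II enzymes 0.45 with 8, again against 26.6% of all genes. Eprs, 1 of the 4, was counted in class I for its glutamate part, although its proline part is of class II. The list and the classes overlap, and so do the classes and the complex.

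**Figure D2:**
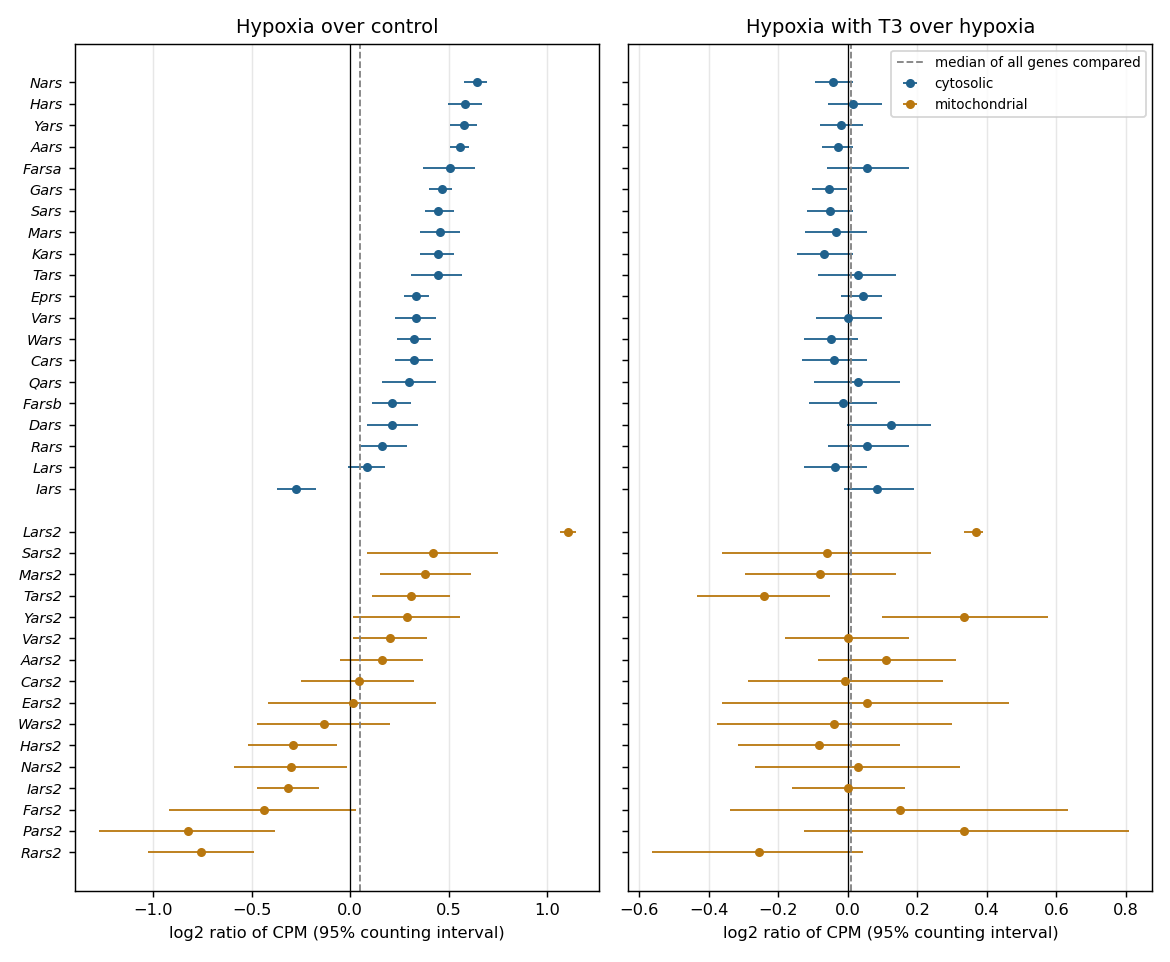
Log2 ratio of CPM (no value added) for each synthetase, hypoxia over control on the left and hypoxia with T3 over hypoxia on the right, on axes of different width. Bars are 95% counting intervals and the dashed line is the median of all genes compared, 0.05 on the left and 0.01 on the right. On the left the cytosolic genes lie to the right of the dashed line except for Iars, while the mitochondrial genes lie on both sides of it.

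The mitochondrial synthetases lay on both sides of the all-gene median in hypoxia over control, and their difference from the cytosolic set was not tested. Their median log2 ratio of hypoxia over control was 0.02, which is 0.03 below the all-gene median, with values between -0.70 in Rars2 and 1.10 in Lars2. At 1.5-fold 1 of the 16 was higher (8.46% of all genes) and 2 were lower (13.8%), and at 2-fold 1 was higher (1.99%) and 0 were lower (4.92%). At 1.25-fold 3 were higher (26.6%) and 3 lower (24.4%). A log2 ratio above 0 was seen in 9 of the 16 (54.5% of all genes), and 7 lay above the all-gene median (50.0%). Counting intervals were wholly above 1 in 6 of the 16, against 4795 of the 12692 genes compared. They were wholly below 1 in 5 of the 16, against 3813 of the genes compared. Both are about the shares of all genes. Leaving out Lars2, the summed level of the other 15 was 202 CPM in hypoxia and 208 CPM in control, a ratio of 0.974 (0.932 to 1.02), and their median log2 ratio was 0.01. As a share of reads their sum was 0.0214% in hypoxia and 0.0248% in control, a wider gap. Most of these genes are lowly expressed, with 4.63 to 38.2 CPM in control apart from Lars2, so their intervals are wide.

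The lower members included enzymes for arginine, proline, isoleucine, histidine and asparagine. Rars2, in which human variants cause a form of pontocerebellar hypoplasia, had 7.99 CPM in hypoxia with T3, 9.56 CPM in hypoxia and 16.1 CPM in control, 1.69 times lower in hypoxia (1.40 to 2.04). Pars2 had 4.46, 3.53 and 6.26 CPM, which are 105, 64 and 135 reads, and was 1.77 times lower in hypoxia (1.31 to 2.42). These were the members past 1.5-fold on the lower side, and both hypoxic libraries lay below control. Iars2 had 30.7 CPM in hypoxia with T3, 30.7 CPM in hypoxia and 38.2 CPM in control, 1.25 times lower in hypoxia (1.12 to 1.39). Of its transcript words 22.4% occur on the opposite strand of its neighbour Rab3gap2, which had 64.8, 66.9 and 73.2 CPM, and whether the counting used strand is not given in the sources used here. Hars2, for which human variants cause Perrault syndrome, had 14.2, 15.1 and 18.4 CPM and was 1.22 times lower (1.05 to 1.43). Nars2 had 9.61, 9.44 and 11.6 CPM and was 1.23 times lower (1.01 to 1.5). Fars2 had 3.78, 3.42 and 4.63 CPM, 1.35 times lower with an interval that includes 1 (0.976 to 1.89). Of its transcript words 8.13% occur on the opposite strand of Nrn1, the neuritin gene, which had 39.2, 43.4 and 16.6 CPM.

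Enzymes for serine, methionine, threonine, tyrosine and valine had intervals above 1 in hypoxia over control. Sars2 had 8.80 CPM in hypoxia with T3, 9.17 CPM in hypoxia and 6.86 CPM in control, a ratio of 1.34 (1.06 to 1.68). Mars2 had 16.6, 17.5 and 13.4 CPM and a ratio of 1.30 (1.11 to 1.53). Tars2 had 20.3, 24.0 and 19.4 CPM and a ratio of 1.24 (1.08 to 1.42). The first 2 of these genes had similar levels in both hypoxic libraries, and Tars2 was higher in the library without T3. Yars2, a gene of human mitochondrial myopathy with sideroblastic anaemia, had 15.8 CPM in hypoxia with T3, 12.5 CPM in hypoxia and 10.3 CPM in control, a ratio of 1.22 (1.01 to 1.47). Vars2 had 24.5, 24.5 and 21.4 CPM and a ratio of 1.15 (1.01 to 1.31).

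The other mitochondrial enzymes had intervals that include 1. Aars2 had 21.8 CPM in hypoxia with T3, 20.2 CPM in hypoxia and 18.1 CPM in control (1.12-fold in hypoxia over control, 0.964 to 1.29). Cars2 had 10.3, 10.4 and 10.1 CPM (1.03-fold, 0.841 to 1.25). Ears2, whose glutamate enzyme also charges the glutamine tRNA of mitochondria before an amidase converts the product, had 4.98, 4.81 and 4.77 CPM (1.01-fold, 0.748 to 1.35). In Cars2 and Ears2 the 3 libraries were nearly level. Wars2 had 7.14, 7.35 and 8.06 CPM, 1.10 times lower in hypoxia (0.871 to 1.39). At this depth differences of these sizes were not detectable.

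Lars2, the mitochondrial leucine enzyme, stood apart from every other member in these libraries. The gene lies at chr9:123366927-123462666 on the plus strand (GENCODE M21, GRCm38). It had 1022 CPM in hypoxia with T3, 795 CPM in hypoxia and 370 CPM in control. Hypoxia over control was 2.15-fold (2.09 to 2.21), hypoxia with T3 over hypoxia 1.29-fold (1.26 to 1.31) and hypoxia with T3 over control 2.76-fold (2.69 to 2.83). It was the 1 member past 2-fold in hypoxia over control. Its reads were 83.6%, 79.7% and 64.1% of those of all 16 mitochondrial synthetases in hypoxia with T3, hypoxia and control. Per kilobase of principal transcript it had 263, 204 and 95.2 CPM per kb, while the next mitochondrial gene in control, Rars2, had 4.28, 5.11 and 8.62 CPM per kb.

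Rn45s, the gene of the ribosomal RNA precursor, lay in the same order as Lars2 across the libraries. It had 8649 CPM in hypoxia with T3, 5119 CPM in hypoxia and 2598 CPM in control, or 0.903%, 0.541% and 0.310% of reads, and hypoxia over control was 1.97-fold. Lars2 had 11.8, 15.5 and 14.3 reads per 100 reads of Rn45s. The part of ribosomal RNA in the Lars2 values was not tested, and the Lars2 level is uncertain.

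**Figure D3:**
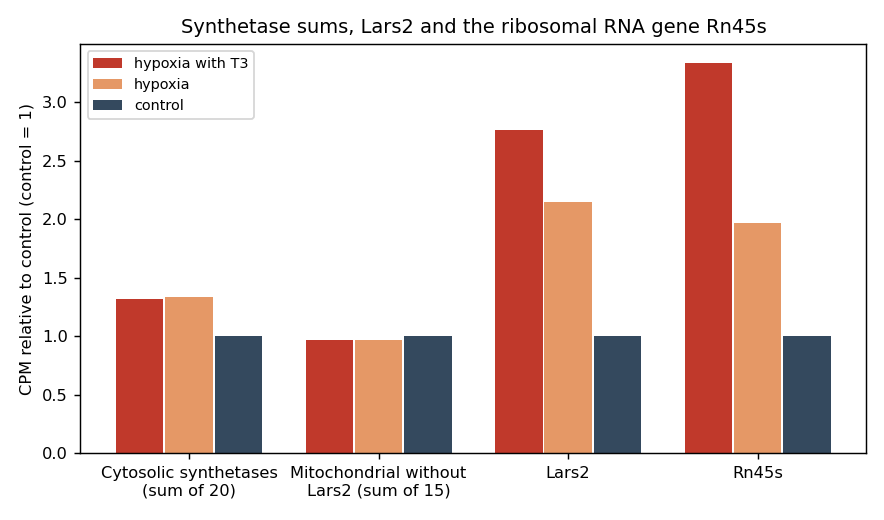
Summed CPM of the 20 cytosolic synthetases, of the 15 mitochondrial synthetases other than Lars2, and CPM of Lars2 and of Rn45s, each divided by its value in control. Bars start at 0, and each bar is 1 library. The cytosolic sum stands about equally above control in both hypoxic libraries, the mitochondrial sum stands near control, and Lars2 and Rn45s step up in hypoxia and again with T3.

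Set side by side by amino acid, the cytosolic enzyme had the higher ratio of hypoxia over control in 14 of 15 pairs. The pairs cover 14 amino acids, with Farsa and Farsb each set against Fars2. Where the cytosolic enzyme was higher, the widest gaps in log2 ratio were 0.91 between Nars (0.63) and Nars2 (-0.27), 0.86 between Rars (0.16) and Rars2 (-0.70), and 0.85 between Hars (0.58) and Hars2 (-0.27). Hars and Hars2 lie head to head on chromosome 18, and 6.68% of the transcript words of Hars occur on the opposite strand of Hars2. The smallest such gap was 0.04, between Iars and Iars2, which were both lower in hypoxia. Counting intervals of the partners overlapped in several pairs, among them Sars and Sars2 (gap 0.07) and Mars and Mars2 (gap 0.09). Apart from Lars2 the mitochondrial enzymes had lower CPM than their cytosolic partners, and the part of level was not tested. Lars (0.08) and Lars2 (1.10) were the pair with the opposite order, at a difference of -1.02. All pairs were measured in the same 2 libraries.

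**Figure D4:**
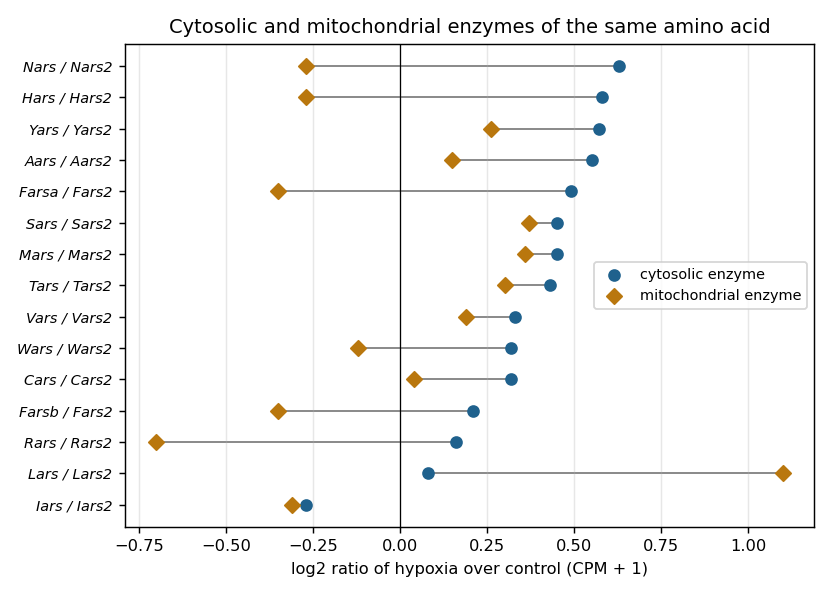
Log2 ratio of hypoxia over control (CPM with 1 CPM added) for the cytosolic enzyme (circle) and the mitochondrial enzyme (diamond) of the same amino acid, 1 line per pair. The circle lies to the right of the diamond in 14 of the 15 pairs, and Lars and Lars2 are the exception.

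Hypoxia over control varied with the length of genes across the whole table, and the cytosolic synthetases lay above genes of like length. The gene span, from first to last annotated base, had a median of 25.3 kb for cytosolic synthetases, 25.1 kb for mitochondrial ones and 25.8 kb for the 12098 genes with an annotated span. Over those genes Spearman's rho between span and log2 ratio was -0.51, and over the 20 cytosolic genes it was -0.50. These values describe points that share libraries and depth. The all-gene median log2 ratio was 0.33 for spans under 10 kb, 0.18 between 10 and 30 kb, -0.12 between 30 and 100 kb and -0.36 from 100 kb. Of 11 cytosolic synthetases between 10 and 30 kb, 10 lay above the median of their span group, and of 8 between 30 and 100 kb, 7 did. In all 17 of 20 cytosolic and 9 of 16 mitochondrial genes lay above the median of genes of like span. Lars2 with 95.7 kb and a log2 ratio of 1.10 was far above its span group, and Pars2 with 4.21 kb and -0.68 far below its own. Rars2, with 45.2 kb and -0.70, was also below its group. Spearman's rho between the ratio and the mean level was 0.74 over the 36 members, which pool lists of different level, 0.56 over the 20 cytosolic genes, 0.45 over the 16 mitochondrial genes and 0.25 over all genes.

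**Figure D5:**
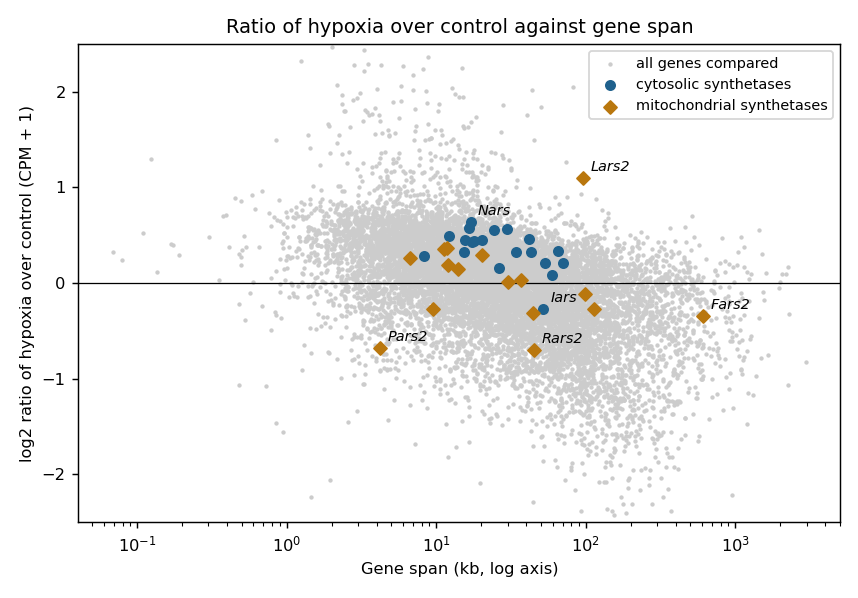
Log2 ratio of hypoxia over control (CPM with 1 CPM added) against gene span in kb on a log axis. Grey points are all genes compared that have a span, blue circles the cytosolic and orange diamonds the mitochondrial synthetases, and 35 genes beyond 2.5 on the vertical axis are not drawn. Ratios are lower for longer genes, and the cytosolic synthetases lie in the upper part of the cloud at their lengths.

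Synthetase levels were nearly the same with and without T3 in hypoxia, with Lars2 as the main exception. The median log2 ratio of hypoxia with T3 over hypoxia was -0.02 for the cytosolic genes, with values between -0.07 in Kars and 0.12 in Dars, and 9 of 20 above 0 (54.1% of all genes). Their summed level was 2806 CPM in hypoxia with T3 and 2836 CPM in hypoxia, a ratio of 0.989 (0.978 to 1.0). Of the 36 members 0 were 1.5-fold apart in either direction (0.717% of all genes higher and 0.276% lower), and so 0 were 2-fold apart (0.126% higher and 0.0630% lower). At 1.25-fold, with 1 CPM added, 1 member, Lars2, was higher (4.29% of all genes) and 0 were lower (2.80%). Counting intervals were wholly above 1 for 2 members (11.1% of all genes), Lars2 and Yars2, and wholly below 1 for 2 (6.71%), Gars and Tars2. Yars2, at 15.8 CPM in hypoxia with T3 and 12.5 CPM in hypoxia, had a ratio of 1.26 (1.07 to 1.49). Pars2, at 4.46 and 3.53 CPM, also had a ratio of 1.26, with an interval that includes 1 (0.917 to 1.75). Both came below 1.25-fold once 1 CPM was added. Tars2, at 20.3 CPM in hypoxia with T3 and 24.0 CPM in hypoxia, was 1.18 times lower with T3 (1.04 to 1.35). Gars was 1.04 times lower, with 292 CPM in hypoxia with T3 and 303 CPM in hypoxia. Without Lars2 the mitochondrial sum was 201 CPM in hypoxia with T3 and 202 CPM in hypoxia (0.995, 0.952 to 1.04).

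Hypoxia with T3 against control gave much the same picture as hypoxia against control, with which it shares the control library. The cytosolic median log2 ratio was 0.37, with 19 of 20 above 0 (56.4% of all genes), 2 at least 1.5-fold higher (8.73%) and 0 at least 1.5-fold lower (13.1%). Under scaling to equal sums 0 were that much higher (4.06% of all genes) and by median of ratios 0 (5.95%), and Lars lay below 0 under both. At 1.25-fold 13 were higher (27.5%) and 0 lower (23.1%), and at 2-fold 0 were higher (2.06%) or lower (4.59%). The 2 past 1.5-fold were Nars, 1.51-fold (1.45 to 1.57), and Hars, 1.52-fold (1.43 to 1.61). The mitochondrial median was 0.04. Of the 16, 1 was at least 1.5-fold higher, Lars2 (8.73% of all genes). Another 1 was at least 1.5-fold lower (13.1%), Rars2, at 2.02 times lower (1.68 to 2.42). Pars2 was 1.40 times lower (1.08 to 1.83). Yars2 was 1.54-fold higher (1.30 to 1.82), but with 1 CPM added its ratio came below the rule. By amino acid the cytosolic enzyme had the higher ratio in 13 of 15 pairs, and Lars and Yars were the exceptions.

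Genes around the synthetases were read from lists chosen with earlier results of these data known. ATF4 and its targets in amino acid synthesis and stress had a median log2 ratio of hypoxia over control of 0.50 over 15 genes, with 6 at least 1.5-fold higher (8.46% of all genes) and 0 lower (13.8%). Atf4 itself had 462 CPM in hypoxia with T3, 486 CPM in hypoxia and 132 CPM in control, 3.69-fold (3.54 to 3.85). Sesn2, an inhibitor of mTORC1 signalling, had 60.6, 63.7 and 18.4 CPM (3.47-fold, 3.09 to 3.9). The transcription factor genes Ddit3, with 21.6, 21.2 and 8.62 CPM (2.45-fold, 2.05 to 2.94), and Atf5, with 85.3, 79.3 and 45.1 CPM (1.76-fold, 1.62 to 1.91), followed. The hypoxic libraries were close together in all 4 genes. Of the 15 genes 11 were at least 1.25-fold higher (26.6% of all genes), and 13 had a log2 ratio above 0 (54.5%). Among those below or near control, Aldh18a1, a proline synthesis enzyme, had 51.2, 53.4 and 59.6 CPM, 1.12 times lower in hypoxia (1.03 to 1.22). Chac1, with 4.21, 6.08 and 7.51 CPM, and Trib3, with 1.36, 1.22 and 1.11 CPM, had intervals that include 1, and these 3 genes were named after their values were seen.

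Amino acid transporters had a median of 0.33 over 10 genes, with 4 at least 1.5-fold higher in hypoxia (8.46% of all genes) and 1 lower (13.8%). Slc3a2, the heavy chain of several exchangers, had 244 CPM in hypoxia with T3, 255 CPM in hypoxia and 113 CPM in control (2.25-fold, 2.14 to 2.37). Its partner for large neutral amino acids, Slc7a5, had 290, 311 and 174 CPM (1.78-fold, 1.71 to 1.86). Slc38a2, a sodium-coupled carrier of small neutral amino acids, had 351, 349 and 167 CPM (2.1-fold, 2.01 to 2.18). The cationic carrier Slc7a3 also lay higher, with 12.2, 15.2 and 8.16 CPM (1.87-fold, 1.54 to 2.27). Folds of these 4 carriers exceeded those of every cytosolic synthetase. The 1 lower was Slc7a11, the cystine and glutamate exchanger, with 2.93, 2.82 and 5.01 CPM, 1.78 times lower in hypoxia (1.26 to 2.53). Slc38a1, another carrier of neutral amino acids, had 198, 196 and 262 CPM, 1.34 times lower (1.28 to 1.40), and both were named after their values were seen.

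The kinases that phosphorylate eIF2 alpha, with the Gcn2 activator Gcn1l1 (now Gcn1), had a median of -0.09 over 5 genes. At 1.5-fold 0 were higher (8.46% of all genes) and 0 lower (13.8%). Eif2ak4, the Gcn2 kinase that senses uncharged tRNA, had 12.8 CPM in hypoxia with T3, 15.5 CPM in hypoxia and 20.5 CPM in control, 1.32 times lower in hypoxia (1.13 to 1.54). Eif2ak1, the haem-regulated kinase, had 69.4, 63.7 and 55.6 CPM (1.15-fold, 1.06 to 1.24), and Gcn1l1 154, 158 and 143 CPM (1.10-fold, 1.04 to 1.16). The intervals of the kinases Eif2ak2, with 6.76, 6.30 and 6.77 CPM, and Eif2ak3, with 27.0, 24.0 and 26.2 CPM, include 1. The 5 genes thus showed no common direction in hypoxia.

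Elongation factors, which take charged tRNA to the ribosome and move it along, had a median of 0.50 over 9 genes, with 3 at least 1.5-fold higher in hypoxia (8.46% of all genes) and 0 lower (13.8%). Eef1a1, the carrier of charged tRNA, had 4350 CPM in hypoxia with T3, 4259 CPM in hypoxia and 2641 CPM in control (1.61-fold, 1.60 to 1.63). Eef2, the translocase, had 2276, 2172 and 1358 CPM (1.60-fold, 1.58 to 1.62). Subunits of the exchange factor for Eef1a1 stood alongside, with 190, 197 and 123 CPM for Eef1b2 (1.60-fold, 1.52 to 1.68) and 405, 405 and 273 CPM for Eef1g (1.48-fold, 1.43 to 1.53). These 4 factors are cytosolic, and their folds were near those of the highest cytosolic synthetases. Among the others the mitochondrial factors differed in direction. Tufm had 71.6, 73.3 and 51.5 CPM (1.42-fold, 1.31 to 1.54). Gfm1 had 26.3, 27.4 and 31.1 CPM, 1.13 times lower in hypoxia (1.01 to 1.28). Tsfm had 7.31, 6.96 and 7.88 CPM, 1.13 times lower with an interval that includes 1 (0.894 to 1.44). These 3 genes were named after their values were seen.

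Maturation and export of tRNA had a median of 0.08 over 9 genes. Tsen54, a subunit of the tRNA splicing endonuclease, had 10.3 CPM in hypoxia with T3, 10.3 CPM in hypoxia and 5.24 CPM in control (1.96-fold, 1.54 to 2.5), and Tsen34, another subunit, had 75.4, 73.8 and 51.4 CPM (1.44-fold, 1.33 to 1.56). The tRNA ligase Rtcb had 123, 122 and 87.6 CPM (1.39-fold, 1.31 to 1.48). Elac1, a tRNA 3′ end nuclease, went the other way, with 8.38, 7.46 and 14.2 CPM, 1.90 times lower in hypoxia (1.55 to 2.35).

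Smaller sets had medians near the all-gene value or below it. Mitochondrial amidation and formylation of charged tRNA had 0.15 over 4 genes, where Gatc had 35.5 CPM in hypoxia with T3, 37.3 CPM in hypoxia and 27.9 CPM in control (1.34-fold, 1.2 to 1.5). The other amidase genes, Qrsl1 with 6.93, 6.63 and 6.12 CPM and Pet112 (now Gatb) with 11.4, 10.3 and 8.85 CPM, and the formyltransferase Mtfmt with 10.8, 10.9 and 11.4 CPM had intervals that include 1. Proofreading and deacylation had a median of -0.06 over 4 genes. Aarsd1, which clears mischarged alanine tRNA, had 31.8, 33.6 and 24.5 CPM (1.37-fold, 1.22 to 1.54) and Dtd1, a D-aminoacyl-tRNA deacylase, 25.2, 25.8 and 21.3 CPM (1.21-fold, 1.06 to 1.38). The related Dtd2 had 4.72, 4.03 and 5.93 CPM, 1.47 times lower in hypoxia (1.10 to 1.99), and Prorsd1 had 1.06, 0.994 and 1.62 CPM with an interval that includes 1.

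The selenocysteine pathway, which makes its amino acid on a serine-charged tRNA, had a median of -0.20 over 5 genes. Sephs2 had 39.9 CPM in hypoxia with T3, 41.8 CPM in hypoxia and 34.9 CPM in control (1.2-fold, 1.08 to 1.33). Secisbp2 had 9.65, 9.56 and 13.3 CPM, 1.40 times lower in hypoxia (1.15 to 1.70), and Eefsec 12.5, 12 and 14.6 CPM, 1.21 times lower (1.02 to 1.45). The intervals of Pstk, with 4.93, 4.25 and 4.77 CPM, and Sepsecs, with 4.46, 3.37 and 4.03 CPM, include 1. Sephs2 makes the selenium donor, whereas Secisbp2 and Eefsec act at the ribosome, and the gene for the donor was the higher one.

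In the authors' deposited tables, which compare each hypoxic library with control over 13152 genes, all 36 synthetases were present and 0 had a false discovery rate under 0.05. The authors' deposited table for hypoxia over control held 85 genes under that rate and gave the synthetases 0.999 at the lowest. The authors' deposited table for hypoxia with T3 over control held 104 such genes, and its lowest value among the synthetases was 0.585, for Lars2, with an unadjusted p-value of 0.0256 and a signed fold of 2.63. The labels do not name the test behind these values.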

How the data were processed

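RNA libraries from mouse primary cortical neurons in 3 groups, 1 library each, were grouped by the treatment labels. Per the labels' protocols the libraries were made with a stranded KAPA kit. Per the submitters' processing notes, bcl2fastq 2.17, Bowtie2 2.1.0, RSEM 1.2.15 and the build mm10 were used, with no role stated. The authors deposited CPM values, which the file name calls TMM-normalised. A further 2 tables that the authors deposited, per the file headers, give a signed fold (minus the inverse where below 1), a p-value and an FDR. The value columns of those tables were deposited by the authors as a signal on another scale and were not used for folds.

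Dividing CPM by the worth of 1 read gave whole numbers (tolerance 0.01) for 100% of values, so the reads behind each value were recovered. A read stood for 0.0425, 0.0552 and 0.0463 CPM in hypoxia with T3, hypoxia and control, and CPM summed to 958205, 945496 and 837997. Printed folds are ratios of CPM, with 95% intervals by the exact Clopper-Pearson method from the split of a gene's reads between libraries. They cover counting error only, as do the floors, because reads counted without molecular tags can repeat a molecule. Called folds used log2(CPM + 1) over 12692 genes (mean of 1 CPM or more), with 1.5-fold as the rule and 2-fold beside it. With 1 library per group a count test across replicates has no spread to estimate, so none was run. Every synthetase is named with its values. Of each related list all members were named where it had up to 5, and otherwise the 4 largest log2 ratios of hypoxia over control. The members and lists were chosen with earlier results of these data known. Spans and transcripts came from GENCODE M21 (GRCm38, the assembly of mm10), and promoter windows from RefSeq GRCm38.p6. Shared reads were examined by 31-base words that occur in transcripts of other genes. Alternatives were equal CPM sums, median-of-ratios scaling, a pseudocount of 0.25 CPM, a filter of 5 CPM and other folds. The procedure was checked on simulated data. Tools were Python 3.11.15 with scipy 1.17.1, pandas 2.3.3 and numpy 2.4.6, and matplotlib 3.10.9 for plots. A further promoter match is not reported here.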

Additional observations from a re-analysis of the deposited data

How the results depend on the processing

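The fold rule and the scaling both moved the counts. Scaling to equal CPM sums moved the all-gene median log2 ratio of hypoxia over control to -0.10, against 0.05, and the cytosolic median to 0.21, which left it 0.32 above the all-gene median, against 0.33. That gap can hardly change, because scaling moves all log2 ratios by nearly the same amount. Cytosolic members at least 1.5-fold higher in hypoxia, 1 as reported (8.46% of all genes), were 0 under equal sums (4.20%) and 0 under median-of-ratios scaling (6.49%). They were 0 at 2-fold (1.99%) and 12 at 1.25-fold (26.6%). For hypoxia with T3 over control they were 2 as reported (8.73% of all genes), 0 under equal sums (4.06%) and 0 under median-of-ratios scaling (5.95%). They were 0 at 2-fold (2.06%) and 13 at 1.25-fold (27.5%). The cytosolic median of 0.37 in this comparison was 0.18 under equal sums and 0.29 under median-of-ratios scaling. Mitochondrial members higher in hypoxia, 1 as reported (8.46% of all genes), were 3 at 1.25-fold (26.6%). Those lower, 2 as reported (13.8%), were 0 at 2-fold (4.92%) and 1 with the filter of 5 CPM, which leaves out Pars2. For hypoxia with T3 over control the 1 higher (8.73%) became 2 at 1.25-fold (27.5%) and 2 with a pseudocount of 0.25 CPM. The 1 lower (13.1%) became 0 at 2-fold (4.59%) and 3 at 1.25-fold (23.1%). For hypoxia with T3 over hypoxia the 0 higher mitochondrial members (0.717%) became 1 at 1.25-fold (4.29%). The share of all genes was not counted for that filter or that pseudocount. Of single members' ratios of hypoxia over control, 22 of 36 left their counting interval under equal sums and 5 changed sign (Lars, Rars, Aars2, Cars2 and Ears2), and 4 of 36 left it under median-of-ratios scaling, with 2 sign changes (Cars2 and Ears2). Of hypoxia with T3 over control 23 left it under equal sums and 7 under median-of-ratios scaling, with 4 sign changes under each (Lars, Cars2, Ears2 and Tars2). Of hypoxia with T3 over hypoxia all 36 stayed within it under both. The 1.25-fold rule, the sum without Lars2 and the values relative to the all-gene median were added after the data were seen. No paired analysis was possible because each group has 1 library. No replicate could be left out for the same reason. Depth limits the mitochondrial genes most, as Pars2 rests on 64 reads in hypoxia.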
